A study of Mus musculus with 4 samples.

Results

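The genes described here encode the proteins of the mitochondrial ribosome. They were chosen by symbol, as Mrpl or Mrps followed by a number and at most 1 letter from a to d, with pseudogenes left out. The rule found 78 of the 27179 genes of the table, 49 with an Mrpl and 29 with an Mrps symbol, on 17 chromosomes. The rule uses no measured value, although it was chosen with earlier results of these data known. The symbols do not fully match the particle. Mrps30 and Mrps18a carry small subunit names although their proteins sit in the large subunit, and Mrps36 is now known as a subunit of the 2-oxoglutarate dehydrogenase complex. Counted by place in the particle, 51 members belong to the large subunit, 26 to the small subunit, and Mrps36 to neither. Of the large subunit members, 30 are classed as bacterial homologs and 21 as specific to mitochondria. In the small subunit these numbers are 16 and 10. The second class holds Mrps18a and Mrps18b, although their genes descend from that of a bacterial protein, so it does not mean absence from bacteria.

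The study asked how deoxycholic acid (DCA), a secondary bile acid made by gut bacteria, acts on group 2 innate lymphoid cells (ILC2s), a lymphocyte of tissues that lacks antigen receptors and secretes cytokines such as IL-5 and IL-13. The cells came from the large intestine of WT C57BL/6 mice and were sorted. They were grown for 5 days with IL-33, IL-25, IL-7, and IL-2, each at 10 ng/mL, and then kept with or without 100 μM DCA. The control libraries are titled Ctrl and are called vehicle here, although the RNA-Seq methods name no vehicle for them. RNA-Seq was done on 2 vehicle libraries and 2 DCA libraries, and both treatments shared strain, tissue and cytokines. The design text gives a treatment of 16 hours and the methods give 24 hours, and the number of mice pooled is not given in the sources used here. For the mouse experiments at large, the methods give C57BL/6J mice of 6 to 8 weeks, elsewhere 6 to 14 weeks, and state that males alone were used of this strain, though another sentence names both sexes. Since nothing says that the replicates came from separate mice or cultures, each p-value measures only the spread between these libraries.

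The mitochondrial ribosome, or mitoribosome, translates the few messenger RNAs of the mitochondrial genome, all of which code for subunits of the respiratory chain and the ATP synthase. Its ribosomal RNAs are made inside the organelle, whereas all of its proteins are encoded in the nucleus, translated in the cytosol and imported. The small subunit holds the messenger RNA and its decoding center, and the large subunit holds the peptidyl transferase center and a tunnel that opens at the inner membrane. Compared with its bacterial relatives, the particle has less RNA and more protein, and many of the added proteins lie on its surface.

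The libraries differed widely in depth. The counts added up to 35838342 and 26564059 in the vehicle libraries and to 32102232 and 244165712 in the DCA libraries, and members took 0.695% to 0.874% of them. ILC2 markers (Gata3, Il1rl1, Klrg1, Il7r, Rora, Il17rb, Id2, and Il2ra) summed to between 6688 and 6928 counts scaled to library size (CPM) in every library, all 4 ILC3 markers were at 0, and the 6 macrophage and monocyte markers summed to at most 0.383 CPM. The sums were 15.9 to 34.7 CPM for 8 T cell markers, 37.7 to 55.1 CPM for 5 B cell markers, 7.73 to 13.5 CPM for 6 epithelial markers, and 159 to 362 CPM for 6 mast cell and basophil markers, lowest in DCA replicate 2. Of the ILC2 markers, Il1rl1 (log2 fold change -0.60), Klrg1 (-0.74), and Il2ra (0.47) were those whose p was under 0.05 before adjustment (edgeR). In bulk RNA, fewer cells of a type and less RNA per cell cannot be told apart. CPM are scaled with edgeR's TMM method throughout.

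Promoter sequence from RefSeq (GRCm38.p6, 250 bases before to 50 after a start) was matched for 69 of the 78 members. It was searched on both strands for the letters of factors known to act on nuclear genes for mitochondrial proteins. CCGGAAG, read by ETS-family factors such as GABP (NRF2), was present in 26 members (37.7%), in 22.4% of the genes tested here, and in 9.93% of all genes with a promoter in the table. GCGCA and GCGC with any 1 base between them, read by NRF1, were present in 13 members (18.8%), in 12.7% of tested genes and in 5.19% of all genes. AAGATGG followed directly by CGG, read by YY1, were present in 5 members (7.25%), in 2.70% of tested genes and in 0.995% of all genes. At least 1 of the 3 motifs was present in 38 members, and ETS and YY1 letters did not overlap in any member promoter. CCAAT was found in 39.1% of members and 43.8% of tested genes, and TATAAA in 7.25% and 8.14%. A match is a description of letters, not of a bound site.

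In the 60 bases just before the start, the ETS letters were present in 13 members (18.8%), 9.37% of tested genes and 4.01% of all genes. The 6 members below are those whose values are given by name in the text. They are printed to show where the letters, in capitals on either strand, fall before the start, which follows the last base (GRCm38.p6, member strand).
Mrpl3 (chr9:105053208-105053267, plus strand): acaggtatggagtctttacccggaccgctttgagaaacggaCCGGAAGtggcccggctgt
Mrpl52 (chr14:54426849-54426908, plus strand): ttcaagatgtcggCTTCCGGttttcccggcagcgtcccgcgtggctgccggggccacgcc
Mrpl58 (chr11:115403692-115403751, plus strand): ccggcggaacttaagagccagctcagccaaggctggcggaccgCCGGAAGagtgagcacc
Mrps18a (chr17:46110944-46111003, plus strand): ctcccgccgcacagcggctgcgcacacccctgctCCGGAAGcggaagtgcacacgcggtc
Mrps22 (chr9:98601680-98601739, minus strand): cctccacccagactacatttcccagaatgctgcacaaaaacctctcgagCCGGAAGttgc
Mrps27 (chr13:99344726-99344785, plus strand): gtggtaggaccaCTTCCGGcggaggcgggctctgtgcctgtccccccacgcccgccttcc

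Many members share their start region with a neighbour on the opposite strand. Another gene began within 1000 bases upstream and ran the other way for 26 of the 69 members (37.7%), against 21.2% of tested genes and 12.2% of all genes. In 1 such pair both genes are members. Mrpl46 and Mrps11 start 42 bases apart. Mrps12 shares its start region with Sars2, the mitochondrial seryl-tRNA synthetase, and Mrpl57 with Ska3, a gene of chromosome segregation. The bases between the start sites of the promoter table are shown on the member's strand, with NRF1 letters in capitals where they occur.
Mrpl46 and Mrps11 (chr7:78783090-78783130, minus strand): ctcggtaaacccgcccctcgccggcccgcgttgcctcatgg
Mrps12 and Sars2 (chr7:28741822-28741967, minus strand): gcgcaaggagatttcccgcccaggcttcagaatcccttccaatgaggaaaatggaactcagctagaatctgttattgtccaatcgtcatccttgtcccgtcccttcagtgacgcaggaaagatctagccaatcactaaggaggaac
Mrpl57 and Ska3 (chr14:57826164-57826238, plus strand): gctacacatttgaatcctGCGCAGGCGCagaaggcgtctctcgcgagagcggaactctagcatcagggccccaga

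Nearly the whole set was expressed in cultured ILC2s. Of the 78 members, 77 passed a mean of 1 CPM over the 4 libraries, from 12.4 CPM (Mrps17) to 437 CPM (Mrpl33). To compare genes, each level was divided by the length of the gene's transcripts. Mrpl33, a small protein of the large subunit with a bacterial homolog (chr5:31613951-31622644), had the highest level, with 864 and 928 CPM per kilobase in the vehicle libraries and 750.0 and 1111 in the DCA libraries. In every library it lay above every library of every other member. Exons of another gene on the same strand cover 22.4% of its exon bases, and reads there cannot be assigned to 1 of the genes.

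The next 4 were Mrpl42 (292 to 431 CPM per kilobase over the 4 libraries), Mrps21 (263 to 442), Mrpl20 (210.0 to 380.1), and Mrpl18 (257 to 324). Their ranges overlap, so their order does not go beyond the spread between libraries. Mrpl42 is specific to mitochondria, and the other 3 have bacterial homologs. The lowest members that passed the filter were Mrpl47 (5.92 to 9.19 CPM per kilobase), Mrps5 (6.03 to 9.92), Mrps17 (7.94 to 12.8), and Mrps25 (8.19 to 12.7), whose ranges overlap too. Mrps5 and Mrps17 belong to the small subunit body, and Mrpl47 lies near the exit of the tunnel. Dividing by coding length instead kept Mrpl33 first and gave ranks 5, 4, 7, and 2 to the other 4 high members, but moved Mrps25, whose exons overlap Nr2c2 over 58.2% of their bases, from rank 74 to 43.

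The exception was Mrpl36, encoded at chr13:73328503-73332178, whose bacterial homolog is among the smallest proteins of the large subunit. It had 0 counts in both vehicle libraries, 1 count in DCA replicate 1 and 22 counts in DCA replicate 2. Where no read was counted, up to 3 counts remain possible, or 0.0820 and 0.115 CPM in vehicle replicates 1 and 2, and the 22 counts of the deepest library are 0.0914 CPM. That value lies between these limits, and Mrpl36 did not pass the filter and was not tested. These limits cover counting error only. Annotated exons of Mrpl36 overlap those of Ndufs6 on the opposite strand, although 0 exon bases of its RefSeq-matched transcripts are shared with another gene. The strand setting of the counts is not given, so how reads there were assigned is not known.

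**Figure D1:**
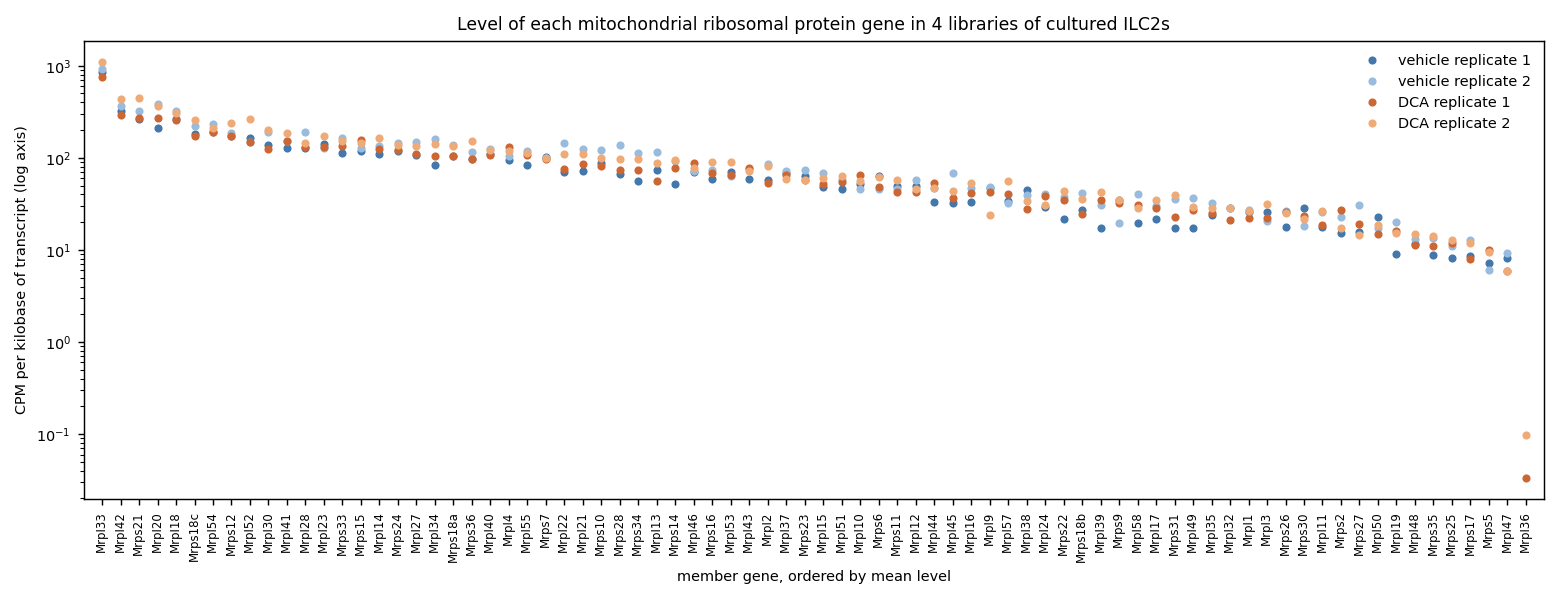
Level of each of the 78 members in CPM per kilobase of transcript (vertical log axis), ordered by mean level, with 1 point per library (blue, vehicle; orange, DCA). Mrpl33 stood apart at the top with 750.0 to 1111, and Mrpl36 at the bottom, where its 2 vehicle libraries at 0 cannot be drawn on a log axis.

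DCA and vehicle were compared with edgeR's quasi-likelihood test over 11184 genes, and no member passed it. The members summed to 6806 and 8669 CPM in the vehicle libraries and to 7330 and 8862 CPM in the DCA libraries, so the treatments overlapped and their means differed by 0.07 on the log2 scale. The median member had a fitted log2 fold change of 0.06, against 0.01 for all genes tested. Fitted values were above 0 for 44 members and below 0 for 33, where 50.7% of all genes tested were above 0. This split turned with a single library left out. It was 26 above and 51 below without vehicle replicate 1, and the same without DCA replicate 2, but 63 and 14 without vehicle replicate 2 and 57 and 20 without DCA replicate 1.

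No member passed an adjusted p of 0.05 (edgeR quasi-likelihood test, Benjamini-Hochberg over all genes), and neither did any other gene, a background of 0%. At an unadjusted p under 0.05 the count of members was also 0, where 4.27% of all genes tested passed. DESeq2 gave 0 members at either threshold, with 126 genes past the adjusted and 784 past the unadjusted one. The smallest unadjusted p of a member was 0.0995, for Mrpl57. With 2 libraries against 2, an exact permutation test cannot go below a two-sided p of 0.333.

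The fitted differences of members were small beside those of other genes. All 77 lay between -0.55 and 0.69 on the log2 scale, and 72 (93.5%) were smaller than 0.5, against 60.2% of all genes tested and 72.7% of the other genes in the same range of mean CPM. Cytosolic ribosomal protein genes were smaller still, with all 82 tested under 0.5 and a median size of 0.12, against 0.20 for the members. These shares are descriptions and were given no test. Within the shared range the levels were not matched, with a median mean CPM of 85.7 for the members and 47.6 for the other genes. The precision of a single member stayed limited. The 95% intervals of the limma fit on log2(CPM + 1) included 0 for all 77 members and had a median width of 1.46, and 51 of them lay within -1 and 1, so that for the other 26 a change of that size was not excluded by the interval.

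**Figure D2:**
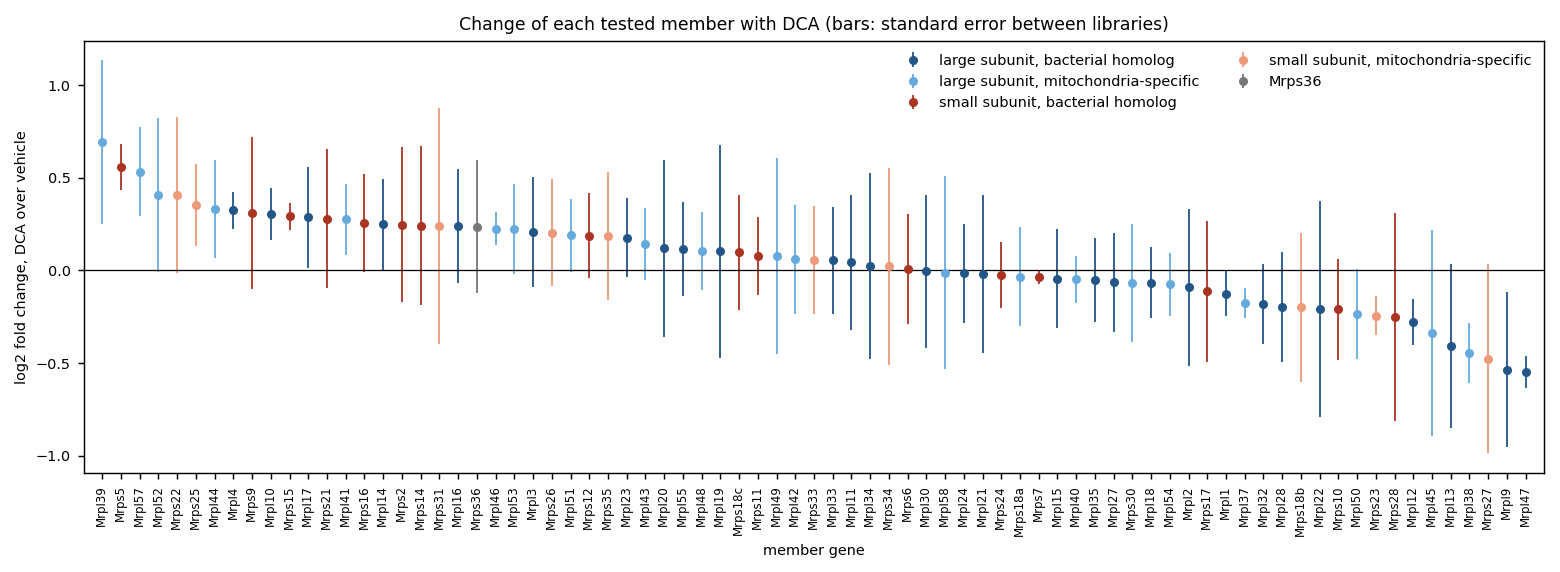
Fitted log2 fold change of each of the 77 tested members, DCA over vehicle, ordered by size and colored by class, with bars of 1 standard error between libraries. The values ran from 0.69 for Mrpl39 to -0.55 for Mrpl47, and members of all 4 classes lay on both sides of 0.

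Both DCA libraries lay above both vehicle libraries for 10 members, where the background over all genes tested was 18.6%. They were Mrpl39, Mrps5, Mrpl57, Mrps25, Mrpl44, Mrpl4, Mrpl10, Mrps15, Mrpl41, and Mrpl46. Both DCA libraries lay below for 6 members, with a background of 14.7%, and these were Mrpl37, Mrps23, Mrpl12, Mrpl38, Mrpl9, and Mrpl47. Together these are 20.8% of the members tested, against 33.3% of all genes. With median-of-ratios scaling the split was 8 above and 9 below, and with each member taken as a share of the members' sum it was 11 above and 15 below. For these alternatives no share over all genes was computed, so the contrast with 33.3% is given for the TMM scaling only.

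Among the large subunit members, Mrpl39, a protein specific to mitochondria, had the highest fitted value of the set. Its vehicle libraries were at 39.6 and 71.3 CPM, and its DCA libraries at 80.6 and 98.7 CPM. The groups did not overlap, but the vehicle libraries differed from each other by more than vehicle replicate 2 differed from DCA replicate 1. The log2 fold change of Mrpl39 was 0.69 ± 0.44 (SE) with an unadjusted p of 0.110, and the adjusted p was 0.999 in edgeR's test. Here and below, SE is the standard error of log2(CPM + 1) between libraries. It does not come from edgeR's fit and does not give the precision of the fitted value. The log2 fold change was 0.30 without vehicle replicate 1 and 1.18 without vehicle replicate 2.

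Mrpl57, also specific to mitochondria, was at 98.2 and 92.3 CPM with vehicle and at 115.5 and 160.1 CPM with DCA. The vehicle libraries were close together and DCA replicate 2 stood highest. Its log2 fold change was 0.53 ± 0.24 (SE), with an interval from -0.13 to 1.15, and 0.28 without DCA replicate 2. Its divergent neighbour Ska3, whose start lies across the NRF1 letters printed above, was at 21.8 and 57.9 CPM with vehicle and at 25.0 and 28.5 CPM with DCA, so that the treatments overlapped.

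Mrpl52 was at 68.2 and 62.0 CPM with vehicle and at 62.2 and 110.4 CPM with DCA. Only DCA replicate 2 stood apart, and the log2 fold change of 0.41 ± 0.41 (SE) became -0.07 without it. At the other end, Mrpl47, a homolog of a bacterial protein at the tunnel exit, was at 27.3 and 30.9 CPM with vehicle and at 19.98 and 19.91 CPM with DCA. The groups did not overlap and the DCA libraries were nearly equal. Its log2 fold change was -0.55 ± 0.09 (SE), with an unadjusted p of 0.253 and an interval from -1.56 to 0.52.

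Mrpl9, a homolog of a bacterial protein that reaches out from the particle's side, was at 76.6 and 78.2 CPM with vehicle and at 68.7 and 38.2 CPM with DCA. The distance came mostly from DCA replicate 2, and the log2 fold change of -0.54 ± 0.42 (SE) was -0.17 without it. Mrpl38, specific to mitochondria, was at 62.9 and 55.5 CPM with vehicle and at 39.2 and 47.6 CPM with DCA, without overlap, and its log2 fold change was -0.45 ± 0.16 (SE). Mrpl13, with a bacterial homolog, was at 91.2 and 141 CPM with vehicle and at 68.5 and 106.5 CPM with DCA, where each treatment's libraries spread widely and the groups overlapped. Its log2 fold change of -0.41 was -0.06 without vehicle replicate 2. Exons of Mtbp cover 27.0% of the exon bases of Mrpl13.

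The stalk of the large subunit recruits translation factors. It is built on Mrpl10 and carries copies of Mrpl12, with Mrpl11 at its base. Mrpl10 was at 89.8 and 78.1 CPM with vehicle and at 110.6 and 96.8 CPM with DCA (log2 fold change 0.30 ± 0.14, SE). Mrpl12 was at 64.4 and 75.3 CPM with vehicle and at 55.6 and 59.7 CPM with DCA (log2 fold change -0.28 ± 0.12, SE). Mrpl10 lay higher and Mrpl12 lower with DCA in both libraries, although neither passed the test, and the unadjusted p was 0.292 and 0.380 in edgeR's test. Without DCA replicate 1 the value of Mrpl10 was 0.20, and without vehicle replicate 2 that of Mrpl12 was -0.16. Mrpl11 overlapped between treatments, with 53.8 and 78.6 CPM against 56.6 and 80.0 CPM.

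Mrpl3 and Mrpl4 belong to the core of the large subunit, Mrpl3 close to the catalytic center and Mrpl4 lining the tunnel. Mrpl3 overlapped between treatments, at 80.2 and 65.1 CPM with vehicle and at 69.0 and 98.7 CPM with DCA. Mrpl4 was at 121.7 and 134.5 CPM with vehicle and at 168 and 153 CPM with DCA, without overlap, and its log2 fold change was 0.32 ± 0.10 (SE) with an unadjusted p of 0.215. Mrpl58, a peptidyl-tRNA hydrolase that became part of the particle and frees stalled ribosomes, was at 49.4 and 102.6 CPM with vehicle and at 77.8 and 72.9 CPM with DCA. Both DCA libraries of Mrpl58 lay between the vehicle libraries, and its fitted value was -0.01, with an interval from -0.81 to 0.96.

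Among the small subunit members, Mrps5, a homolog of a bacterial protein at the messenger RNA entry that bears on decoding accuracy, was at 32.1 and 27.0 CPM with vehicle and at 44.5 and 42.7 CPM with DCA. Both DCA libraries were higher than both vehicle libraries, an order that 18.6% of all genes tested also had. Its log2 fold change was 0.56 ± 0.12 (SE), with an unadjusted p of 0.173 and an interval from -0.33 to 1.43. Mrps15, the homolog of another bacterial small subunit protein, showed a similar order, with 110.4 and 118.9 CPM against 145 and 136 CPM, a log2 fold change of 0.29 ± 0.07 (SE).

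Mrps12, the homolog of the bacterial protein at the decoding center in which streptomycin resistance arises, was at 139.8 and 150.2 CPM with vehicle and at 139.6 and 190.7 CPM with DCA. The groups overlapped, and the log2 fold change of 0.19 ± 0.23 (SE) was -0.05 without DCA replicate 2. Sars2, on the other side of the start region printed above, was at 8.39 and 9.24 CPM with vehicle and at 30.5 and 27.5 CPM with DCA, without overlap. The fitted log2 fold change of Sars2 was 1.72, with an SE of 0.09 between libraries. Its unadjusted p was 0.0143 and its adjusted p was 0.999 in edgeR's test. Mrps12 and Sars2 thus differed in their order of libraries, and the difference between them was not tested. In the pair of members, Mrpl46 was at 79.2 and 80.9 CPM with vehicle and at 99.4 and 87.9 CPM with DCA, without overlap, whereas Mrps11 overlapped, with 51.7 and 48.9 CPM against 45.5 and 60.8 CPM.

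A family of genes descends from the gene of the bacterial small subunit protein bS18, and their products take different places. Mrps18c, the protein at the bacterial position, was at 116.6 and 140.1 CPM with vehicle and at 111 and 164 CPM with DCA. Mrps18b, at another place in the small subunit, was at 25.6 and 39.3 CPM and at 22.8 and 33.6 CPM. Mrps18a, in the large subunit, was at 92.8 and 123.2 CPM and at 92.5 and 118.3 CPM. In all of them DCA replicate 1 was lowest and the treatments overlapped, with log2 fold changes of 0.10, -0.20, and -0.03. Exons of other genes cover 59.1% of the exon bases of Mrps18b and 27.3% of those of Mrps18c.

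Of the small subunit members without a bacterial homolog, Mrps22 was at 25.9 and 45.2 CPM with vehicle and at 41.8 and 52.4 CPM with DCA. The treatments overlapped, and its log2 fold change of 0.41 was 0.03 without vehicle replicate 1 and 0.86 without vehicle replicate 2. Mrps25 did not overlap, with 49.7 and 67.7 CPM against 72.5 and 77.3 CPM, a log2 fold change of 0.35 ± 0.22 (SE) that was 0.12 without vehicle replicate 1 and 0.59 without vehicle replicate 2. Exons of 6430562O15Rik cover 22.6% of the exon bases of Mrps27, a pentatricopeptide repeat protein. Mrps27 was at 29.1 and 57.3 CPM with vehicle and at 34.9 and 27.1 CPM with DCA. For Mrps27 vehicle replicate 2 stood alone at the top, and the fitted value of -0.48 ± 0.51 (SE) turned to 0.10 without that library. Mrps30 and Mrps36, whose symbols do not match their place, overlapped too. Mrps30, in the large subunit, was at 95.1 and 61.0 CPM with vehicle and at 76.6 and 72.5 CPM with DCA, and Mrps36 was at 61.8 and 73.4 CPM and at 61.0 and 98.1 CPM.

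Taken by class, the median fitted log2 fold change was -0.02 for the 29 tested large subunit members with bacterial homologs (13 above 0 and 16 below), 0.08 for the 21 large subunit members specific to mitochondria (12 and 9), 0.14 for the 16 small subunit members with bacterial homologs (11 and 5), and 0.12 for the 10 small subunit members specific to mitochondria (7 and 3). By subunit, the median was 0.01 in the large and 0.14 in the small subunit. The summed CPM of the large over the small subunit was 2.40 and 2.35 in the vehicle libraries and 2.26 and 2.27 in the DCA libraries. The ratio was thus lower in both DCA libraries, a difference that does not depend on the scaling of libraries. It was described and given no test, and 2 libraries against 2 could not reach a p of 0.05 in a permutation test.

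**Figure D3:**
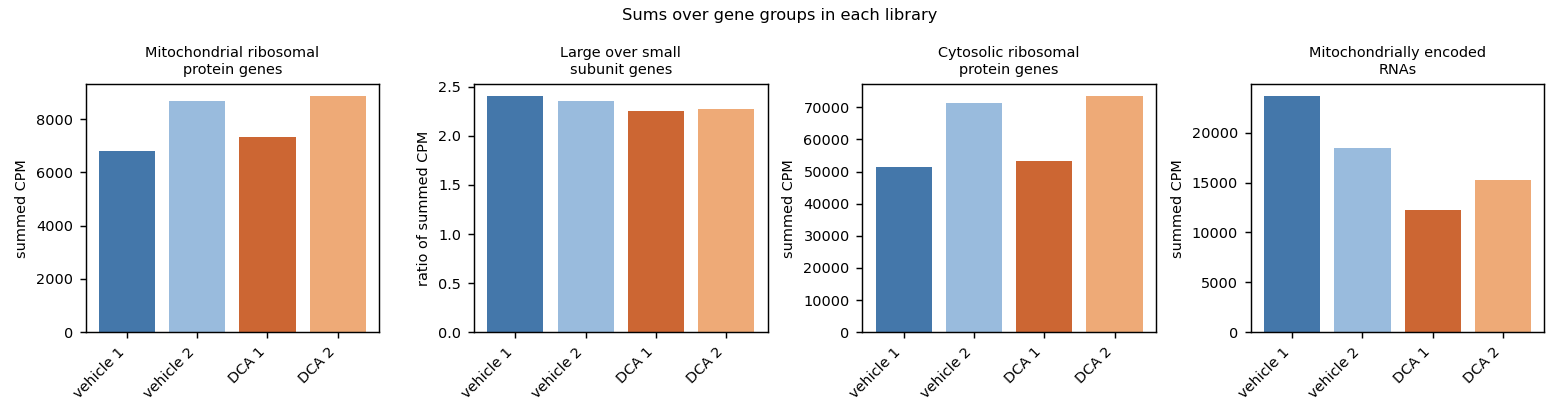
Summed CPM of the members, the ratio of large to small subunit sums, and the summed CPM of cytosolic ribosomal protein genes and of mitochondrially encoded RNAs, with 1 bar per library. The members' sum was higher in replicate 2 of both treatments, the ratio was 2.40 and 2.35 with vehicle against 2.26 and 2.27 with DCA, and the mitochondrially encoded sum was lower in both DCA libraries.

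The median member differed by 0.42 on the log2 scale between the vehicle libraries and by 0.31 between the DCA libraries, and its range over all 4 libraries was 0.58. This range was under 1 for 66 of 77 members (85.7%), against 47.7% of all genes tested, 62.2% of the other genes in the same range of mean CPM and 87.8% of the cytosolic ribosomal protein genes. The narrowest ranges were those of Mrps7, 0.08, and Mrpl40, 0.23. Mrps7, a homolog of the bacterial protein that nucleates the head of the small subunit, was at 203 and 194 CPM with vehicle and at 191 and 196 CPM with DCA. The widest were those of Mrpl39, 1.29, and Mrps31, 1.16. Mrps31, specific to mitochondria, was at 26.1 and 53.5 CPM with vehicle and at 34.4 and 59.5 CPM with DCA, high in replicate 2 of each treatment.

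That order was common. Of the 77 members tested, 35 were highest in vehicle replicate 2 and 28 in DCA replicate 2, whereas 40 were lowest in vehicle replicate 1 and 23 in DCA replicate 1. Vehicle replicate 2 exceeded vehicle replicate 1 in 63 members (81.8%), against 47.9% of all genes tested. DCA replicate 2 exceeded DCA replicate 1 in 60 members (77.9%), against 51.7% of all genes tested. Both held for 49 members (63.6%), for 26.6% of all genes tested, and for 95.1% of the 82 cytosolic ribosomal protein genes tested. Vehicle replicate 2 was the shallowest and DCA replicate 2 the deepest library.

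**Figure D4:**
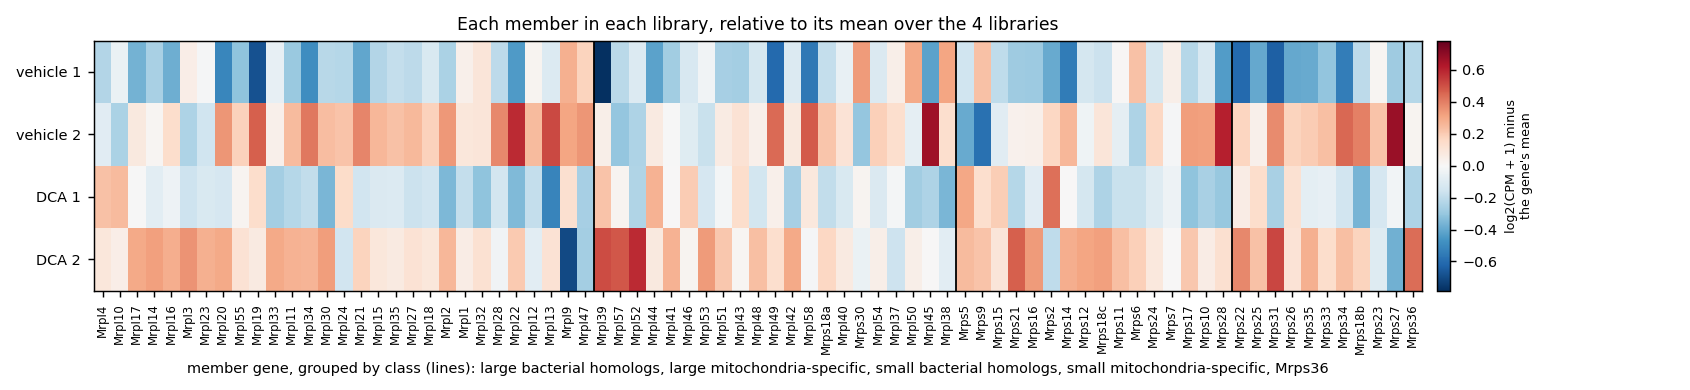
Level of each of the 77 tested members in each library as log2(CPM + 1) minus the gene's mean over the 4 libraries (color scale), grouped by class. Vehicle replicate 1 was the lowest library for 40 members, and vehicle replicate 2 the highest for 35, so that libraries of the same treatment differ visibly.

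For comparison, the protein genes of the cytosolic ribosome summed to 51258 and 71361 CPM in the vehicle libraries and to 53277 and 73437 CPM in the DCA libraries. They exceeded the members' sum by a factor of 7.53 and 8.23 with vehicle and of 7.27 and 8.29 with DCA. The median log2 fold change of the 82 cytosolic genes tested was 0.08. Of these genes 2 (2.44%) did not overlap between treatments, against 33.3% of all genes tested.

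The other genes of mitochondrial gene expression were read from gene lists in the same fit, and none passed an adjusted p of 0.05 in edgeR's test. Of 5 mitoribosome proteins with other symbols, all had fitted values above 0, with a median of 0.22, and an unadjusted p under 0.05 was found for 1 of them, where 2.54% of all genes tested passed in that direction. This was Ptcd3, a pentatricopeptide repeat protein of the small subunit, at 21.9 and 37.0 CPM with vehicle and at 77.1 and 81.5 CPM with DCA (log2 fold change 1.43 ± 0.37, SE, unadjusted p of 0.00833). Dap3, a GTP-binding protein of the small subunit, was at 101.2 and 104.1 CPM with vehicle and at 121.0 and 123.9 CPM with DCA, without overlap.

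Of 24 assembly factors, 12 had fitted values above and 12 below 0, and 14 (58.3%) did not overlap between treatments, against 33.3% of all genes tested. An unadjusted p under 0.05 was found for 1 of 24, where 4.27% of all genes tested reached it in either direction. Mtg1, a GTPase that acts late in building the large subunit, was at 29.4 and 20.8 CPM with vehicle and at 59.9 and 50.5 CPM with DCA, for a log2 fold change of 1.14 ± 0.27 (SE) with an unadjusted p of 0.0232. None of 14 translation factors, which act on the finished ribosome, had an unadjusted p under 0.05, and their median was 0.02. The 20 genes of mitochondrial transcription and RNA handling had a median near 0, and 2 of them had an unadjusted p under 0.05, both lower with DCA, where 1.73% of all genes tested passed in that direction. Polrmt, the mitochondrial RNA polymerase, was at 29.5 and 22.2 CPM with vehicle and at 3.06 and 9.06 CPM with DCA (log2 fold change -2.09 ± 0.68, SE, unadjusted p of 0.0274). Lrpprc, which stabilizes mitochondrial messenger RNAs, was at 111 and 51.8 CPM with vehicle and at 40.2 and 31.9 CPM with DCA (log2 fold change -1.18 ± 0.57, SE, unadjusted p of 0.0355). The groups did not overlap for either gene.

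The RNAs that the mitoribosome translates or contains were lower with DCA in their fitted values. The 15 mitochondrially encoded messenger and ribosomal RNAs summed to 23661 and 18473 CPM in the vehicle libraries and to 12237 and 15217 CPM in the DCA libraries, without overlap. All 14 that passed the filter had values below 0, with a median of -0.58, and 9 of them had both DCA libraries below both vehicle libraries, against 14.7% of all genes tested. Their mean CPM differed widely, from 1.57 CPM for ATP8 to 4583 CPM for COX1, and how reads were assigned among these genes is not given. ATP8, ND3 (8.20 CPM), and ATP6 (28.5 CPM) were among those 9. An unadjusted p under 0.05, which 1.73% of all genes tested reached in this direction, was found for CYTB (-0.63, p of 0.0272), COX1 (-0.71, p of 0.0341), ND1 (-0.63, p of 0.0461), and the large ribosomal RNA gene mt-Rnr2 (-0.52, p of 0.0486), all with an adjusted p of 0.999 in edgeR's test. These RNAs are cut from shared precursors and are not independent of each other. Over the members the median was 0.06 in the same fit, and a difference between the 2 groups of genes was not tested.

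**Figure D5:**
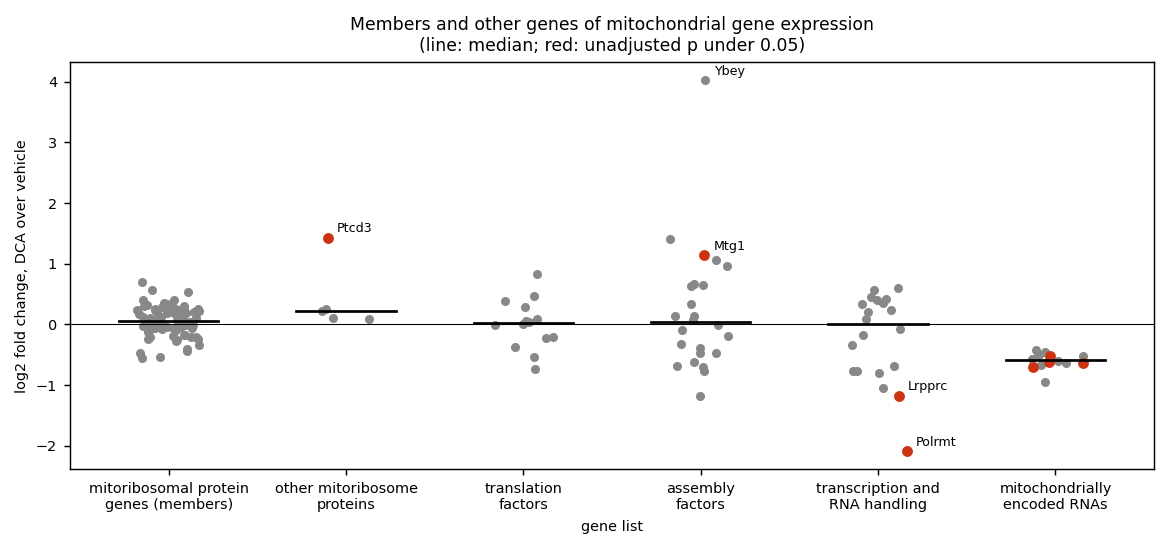
Fitted log2 fold change, DCA over vehicle, of each tested gene in the set of members and in 5 other lists of mitochondrial gene expression, with the median as a line and genes with an unadjusted p under 0.05 in red. Members lay between -0.55 and 0.69 with none in red, whereas the mitochondrially encoded RNAs had a median of -0.58.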

How the data were processed

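The authors sorted and cultured the cells, reverse transcribed their RNA with a SMART-Seq HT kit and built paired-end Nextera XT libraries. The submitters' processing notes name Cutadapt 1.9, which trimmed the reads, and HISAT2 2.2.1, the aligner, on mm10. The deposited table holds whole-number counts of reads per gene, not normalized, although its name refers to FPKM. The counting tool, its annotation and its strand setting are not given in the sources used here. Of the 27179 rows, 1275 have no symbol and hold 0.137% to 0.173% of the counts; they were kept.

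The members and gene lists were chosen with earlier results of these data known. Counts were fitted for every gene whose mean over the libraries reached 1 CPM, with edgeR 4.0.16 in R 4.3.3 (TMM, quasi-likelihood test, two-sided, Benjamini-Hochberg), after a check on simulated counts. Standard errors were computed from log2(CPM + 1) in the libraries of each treatment. Intervals come from limma 3.58.1. DESeq2 1.42.0 was an alternative. Lengths are medians of GENCODE vM21 transcripts matched to RefSeq. Named genes were members with an unadjusted p under 0.05, the 5 highest and 5 lowest by fitted value and by level, those with the 2 widest and 2 narrowest ranges, 12 chosen by role, those below the filter, and genes of the other lists with an unadjusted p under 0.05. Neighbours of shared start regions and members without overlap were named after their values were seen. Of 6 pseudogenes of members in RefSeq none has a row under its symbol, and for reads from near-identical copies the assignment is uncertain.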

Additional observations from a re-analysis of the deposited data

How the results depend on the processing

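No member passed an adjusted p of 0.05 in edgeR or in any alternative with 4 libraries. Over all genes the count was 0 with edgeR, 126 with DESeq2 and 36 of 17706 without a filter. Without a filter, and with the replicate block, 1 member (Mrpl39) had an unadjusted p under 0.05, against 0 in the reported fit. The same-numbered libraries' deviations had a correlation of 0.02 across genes and the labels name nothing they share, so the numbers were not used as pairs. With 2 pairs this does not show that they share no source. The median of the members was 0.08 with the replicate block. As shares of the members' sum, an alternative chosen after seeing the data, both DCA libraries lay below for 15 members and above for 11. No share over all genes was computed for this alternative. The fitted value of Mrpl58, -0.013, was 0.078 with limma, 0.079 with the replicate block and 0.0065 with DCA replicate 2 thinned. Leaving out a library moved the members' median between -0.14 and 0.24. It was -0.14 when vehicle replicate 1 was left out, 0.24 for vehicle replicate 2, 0.18 for DCA replicate 1 and -0.11 for DCA replicate 2. The log2 ratio of the sums moved between -0.13 and 0.25. The sign changed for 6 of 77 members in any of 9 alternatives with 4 libraries and for 52 with a library left out, which leaves a treatment with 1 library assumed to vary like the others. The causes were not tested. With 2 libraries per treatment, small changes of single members could not be told from 0.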
